A study of Mus musculus with 10 samples.

Results

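The 48 genes described here encode proteins of germ cells: factors of early germ cells and of entry into meiosis, the synaptonemal complex and the meiotic chromosome axis, the enzymes of meiotic recombination, and the machinery that makes PIWI-interacting RNAs (piRNAs) and silences transposons. They were taken as a list of symbols out of the 45706 genes in the tables. The symbol of 47 members was found as listed, and Meioc, deposited as Gm1564, was matched by its gene ID. After the filter on low counts 45 members were tested. Figla, Nanos2 and Spo11 fell under it, with at most 6 estimated reads in any library.

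RNA was measured in mouse cells of a C57BL/6 x 129 background while fibroblasts were reprogrammed towards pluripotency, in a study of enhancer networks bound by the factor KLF4. The starting cells were embryonic fibroblasts (MEF) with an OKSM cassette (Oct4, Klf4, Sox2 and c-Myc) at Col1a1 and the M2rtTA activator at ROSA26, grown in MEF medium without doxycycline and left unsorted. The groups D3, D6 and D9 carry that same genotype and were kept for 3, 6 and 9 days in ESC medium with 1 µg/ml doxycycline, which switches the cassette on, and 50 µg/ml ascorbic acid. D3 cells were the whole unsorted culture, whereas D6 and D9 cells were sorted for SSEA+, a surface marker of cells on the way to pluripotency. The reference was the embryonic stem cell line V6.5 (ESC), unsorted, in ESC medium with serum and LIF and on irradiated feeder cells, without doxycycline in its medium label. V6.5 is a single line, and no germ cell or gonad sample was analysed here. Each group had 2 libraries, 10 in all. The labels do not say that libraries of a group came from separate cultures, so p-values measure only the spread between these libraries.

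In the embryo, germ cells are set aside early and pass through a state that shares much of its gene expression with pluripotent cells. They then enter meiosis, in which cohesin rings and axis proteins organise the chromosomes, the synaptonemal complex zips homologues together, and programmed DNA breaks are repaired by recombination. In male germ cells the PIWI proteins, loaded with piRNAs and assisted by Tudor domain proteins, silence transposons. Many of these genes are kept off in somatic cells by DNA methylation of CpG-rich promoters and by a Polycomb complex, PRC1.6, whose subunits include E2F6 and the MGA and MAX pair, and mouse ESC cultures are known to express some of them.

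The libraries held 29585876 to 38275024 estimated reads, with 2.02% to 5.32% on mitochondrial genes and the highest shares at D9. Markers were checked against the labelled cell types. A list of 12 fibroblast markers summed to 9716 and 10203 TPM in MEF, 17.9 in both D9 libraries, and 854 to 901 in ESC, where feeder cells were present. Of 10 pluripotent cell markers, 9 were under 1 TPM in MEF and none was in ESC. Of 8 markers of gonadal somatic cells, such as Amh and Foxl2, all 8 were under 1 TPM in ESC. Of 8 markers of 2-cell-like cells, 7 were under 1 TPM in every group but ESC, where only Zfp352 was. Sex-linked genes did not match between the groups: Xist was under 1 TPM in MEF and ESC, and the 4 Y-linked genes Ddx3y, Eif2s3y, Kdm5d and Uty were under 1 TPM at D3, D6 and D9 but not in MEF. Between ESC and D9, Xist was lower (-6.73 on the log2 scale) and Ddx3y, Eif2s3y, Kdm5d and Uty higher (8.01, 9.36, 1.75 and 4.73). The induced libraries thus differ from both MEF and ESC in sex-linked expression as well as in stage, and the 2 cannot be told apart in comparisons of induced libraries with MEF or ESC. Medium and doxycycline differ in these comparisons too, and ESC is another cell line. D6 and D9 were sorted and the other groups were not. None of these differences can be told apart from stage.

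Promoter sequence is shown first, and whether it bears on the members' levels was not tested. RefSeq promoters on GRCm38.p6, read here as the 250 bases before the start of the gene, were found for 41 of the 48 members, taking the listed start nearest to the gene start in GENCODE. For 7 of them (Figla, Mei1, Meioc, Nanos3, Piwil1, Prdm1 and Tex101) the RefSeq start lay 1020 to 69753 bases from that of GENCODE, so their windows may not be at the start in use. Tex11, Tex15, Spo11, Piwil2, Dnd1, Rnf17 and Tdrd6 had no entry. In the sequences below, written 5′ to 3′ on the strand of the gene, capitals mark CACGTG, the E-box that MGA and MAX are known to recognise, or GCGGGAA, a word of the E2F type. Hormad1 (chr3:95559427-95559676, plus strand), Mael (chr1:166238745-166238994, minus strand) and Sycp1 (chr3:102936101-102936350, minus strand) were called higher in ESC than at D9. Syce2 (chr8:84871861-84872110, plus strand) was higher at D9 than in MEF and was not called between ESC and D9. All 4 were chosen with their values known.
Hormad1: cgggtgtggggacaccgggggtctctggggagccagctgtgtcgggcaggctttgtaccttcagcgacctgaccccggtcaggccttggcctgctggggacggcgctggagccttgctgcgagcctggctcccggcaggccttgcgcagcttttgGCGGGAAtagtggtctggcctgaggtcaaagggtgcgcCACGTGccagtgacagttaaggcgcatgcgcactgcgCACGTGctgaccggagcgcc
Mael: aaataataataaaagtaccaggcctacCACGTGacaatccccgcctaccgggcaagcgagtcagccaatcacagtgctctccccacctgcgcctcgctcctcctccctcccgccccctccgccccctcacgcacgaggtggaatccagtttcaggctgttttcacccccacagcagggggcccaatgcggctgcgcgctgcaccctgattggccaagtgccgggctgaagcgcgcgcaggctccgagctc
Sycp1: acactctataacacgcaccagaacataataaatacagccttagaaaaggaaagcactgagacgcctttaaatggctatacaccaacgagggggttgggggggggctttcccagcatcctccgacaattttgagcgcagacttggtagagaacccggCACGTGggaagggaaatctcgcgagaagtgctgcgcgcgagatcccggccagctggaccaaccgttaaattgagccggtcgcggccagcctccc
Syce2: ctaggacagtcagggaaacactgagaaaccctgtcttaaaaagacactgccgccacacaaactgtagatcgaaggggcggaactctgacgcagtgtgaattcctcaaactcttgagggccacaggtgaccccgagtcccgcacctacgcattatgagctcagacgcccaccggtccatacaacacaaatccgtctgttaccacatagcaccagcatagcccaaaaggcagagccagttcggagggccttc

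The window of Hormad1 held 19 CpG pairs, 2 matches to CACGTG and 1 to GCGGGAA. That of Mael held 18 CpG pairs and 1 CACGTG, and the last 3 bases of that window lie in an annotated exon. That of Sycp1 held 17 CpG pairs and 1 CACGTG, and that of Syce2 11 CpG pairs and neither word. CACGTG reads the same on both strands, GCGGGAA was searched on both, and the words can share a single base. Over the 41 members, 14 (34.1%) held CACGTG and 9 (22.0%) held GCGGGAA, against 6.05% and 3.84% of 27025 genes with a window of the same length. Over the 34 members with a start within 1000 bases of the GENCODE start, 13 (38.2%) held CACGTG and 8 (23.5%) GCGGGAA. The members' windows were also richer in CpG, with a median of 15 pairs against 6. Among windows with 15 CpG pairs or more, CACGTG stood in 11 of 22 members (50.0%) and in 9.92% of 7436 genes, and GCGGGAA in 7 of 22 members (31.8%) and in 9.68% of genes. Among 15 members that were higher in ESC than at D9 and not called between D9 and MEF, 7 held CACGTG. It stood in 3 of 7 members that were lower at D9 than in MEF and then higher in ESC, and in 3 of 9 that were higher in both steps. These groups shift with weak calls between D9 and MEF. Those of Sohlh2 among the 7, and of Stra8 and Hormad1 among the 9, rest on at most 10 reads. That of Stk31, among the 7, was lost in other fits. Of 5 members that were higher at D9 than in MEF and not called between ESC and D9, Tdrd1 alone held CACGTG. These matches describe letters in a window, and no binding or methylation was measured here.

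Levels are given in TPM, transcript abundance scaled by length and library, which can be compared between genes, or in estimated reads where these are few. A few reads assigned to a very short transcript can raise the TPM of a gene, as for Tdrd5, Tex14 and Mov10l1. A member was called in a comparison if edgeR's quasi-likelihood test gave a Benjamini-Hochberg adjusted p under 0.05 and the log2 fold change was 1 or more in size. The summed level of the 48 members was 34.5 and 32.3 TPM in the MEF libraries, 37.5 and 33.9 at D3, 54.9 and 54.6 at D6, 74.5 and 77.8 at D9, and 352.0 and 331.0 in ESC. At least 1 TPM in both libraries was reached by 5 of 48 members in MEF (Stag3, Syce2, Tdrd7, Tdrkh and Tex14), 6 at D3, 9 at D6, 7 at D9 and 32 in ESC. The same count over all genes stayed between 27.2% in MEF and 29.0% in ESC. The ESC libraries had the highest mean TPM for 38 of the 45 tested members. The others peaked at D9 (Prdm9, Rec8, Tdrd1 and Tdrd6), at D6 (Tdrkh) or in MEF (Brdt and Tdrd7). In bulk RNA, fewer cells of a kind and less RNA per cell cannot be told apart.

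**Figure D1:**
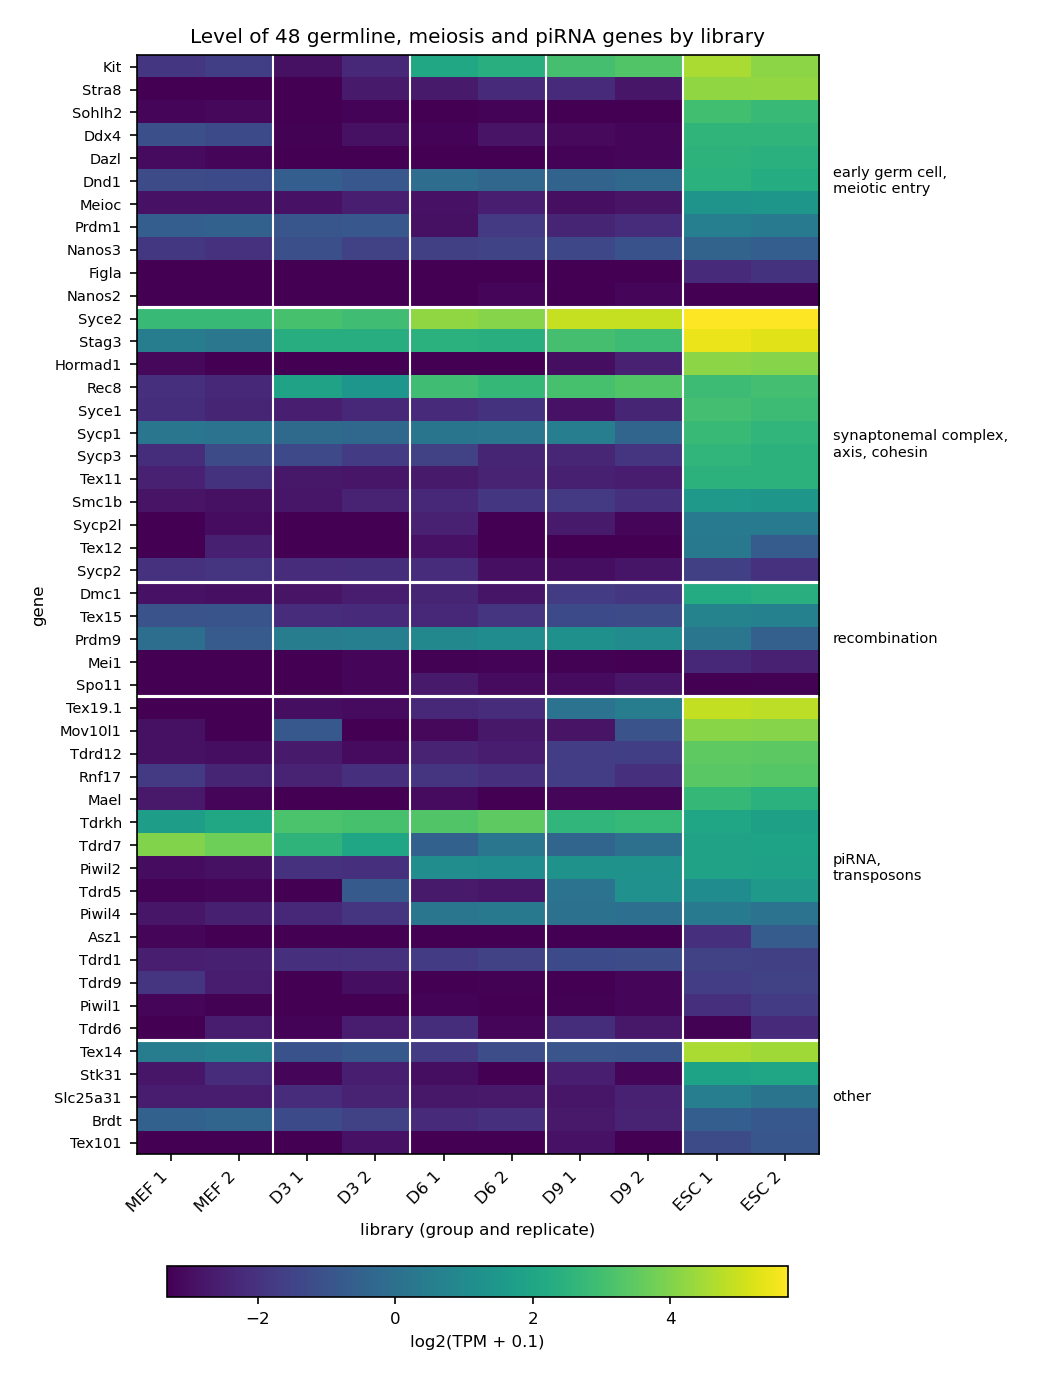
Level of each of the 48 members in each of the 10 libraries as log2(TPM + 0.1), with genes in rows by role and by falling mean level in ESC, and libraries in columns. Most rows are dark from MEF to D9 and light in ESC, while Syce2, Stag3, Rec8, Tdrkh and Piwil2 are light before ESC.

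From MEF to D3, 7 of 45 tested members rose and 8 fell, when 14.6% of the 20165 tested genes were called higher and 14.5% lower. The members that rose were Piwil2, Piwil4, Prdm9, Rec8, Stag3, Tdrkh and Tex19.1, and those that fell were Dazl, Ddx4, Mael, Sycp1, Tdrd7, Tex11, Tex14 and Tex15. From D3 to D6, 8 rose (9.26% of all genes) and 4 fell (10.2%). D3 was unsorted and D6 sorted, so time and sorting cannot be told apart in this step. From D6 to D9, 10 rose (5.18%) and 0 fell (2.68%), with 7.87% of all genes called in either direction. Without the first D6 library the count of members that rose from D6 to D9 was 6. Of members lower at D9 than at D6, Tdrkh alone had an unadjusted p under 0.05, its change of -0.72 missed the fold minimum, and DESeq2 called 0. Between D9 and MEF, 17 members were higher (24.1%) and 7 lower (19.8%).

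Among neighbouring groups the largest count came between D9 and ESC, which also differ in line, sorting and medium. Here 35 of 45 tested members were higher in ESC (18.6% of all genes) and 2 lower (14.3%). Between ESC and MEF 39 were higher (25.5%) and 1 lower (20.6%). The median log2 fold change of the tested members from D9 to ESC was 4.33, against 0.00 over all genes, and 4.08 with members that had a group at 0 reads set to their lower bound. Of the 45 members, 13 (28.9%) passed the low-count filter through the ESC libraries alone, against 6.02% of all genes. They were Asz1, Dazl, Hormad1, Mael, Mei1, Piwil1, Sohlh2, Stk31, Stra8, Sycp2l, Tdrd9, Tex101 and Tex12. Members that passed in that way had to differ, so their tests against ESC add no support. Of the 32 members that passed without the ESC libraries, 22 (68.8%) were higher in ESC than at D9, against 14.6% of the 18951 genes that passed in the same way. Between ESC and MEF, 26 of these 32 members were higher, against 21.7% of the same genes. The 6 comparisons share libraries, so their counts are not independent of each other. Pluripotent cell markers were higher in ESC than at D9 as well, 10 of 10, with sums of 116 to 117 TPM at D9 and 2665 to 2692 TPM in ESC. So were 7 of 8 markers of 2-cell-like cells, all but Eif1a. These 7 summed to at most 0.0717 TPM in any library outside ESC and to 45.6 and 44.6 TPM in ESC. Markers that low elsewhere had to be higher in ESC to pass the low-count filter, so their count adds no support. Fibroblast markers were higher too, 11 of 12 with a median log2 fold change of 4.87, in ESC cultures that held feeder cells. The part of these cells in the members' change was not tested. Of the members higher in ESC than at D9, 10 had also been higher at D9 than in MEF, and 18 had not been called between D9 and MEF. The other 7 had been lower at D9 (Brdt, Ddx4, Prdm1, Sohlh2, Stk31, Sycp2 and Tdrd7). In these 2 comparisons 11 of the 12 fibroblast markers went the same way. Between ESC and MEF all 12 fibroblast markers were lower, and of the 7 members Tdrd7 was. Ddx4 and Prdm1 were higher in ESC than in MEF, and Brdt and Sycp2 were not called. Sohlh2 and Stk31 were called higher too, but they passed the filter through the ESC libraries alone, so these calls add no support. Their lower calls at D9 against MEF were lost in DESeq2 (adjusted p = 0.062 and 0.12). The part of feeder cells in these differences was not tested.

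**Figure D2:**
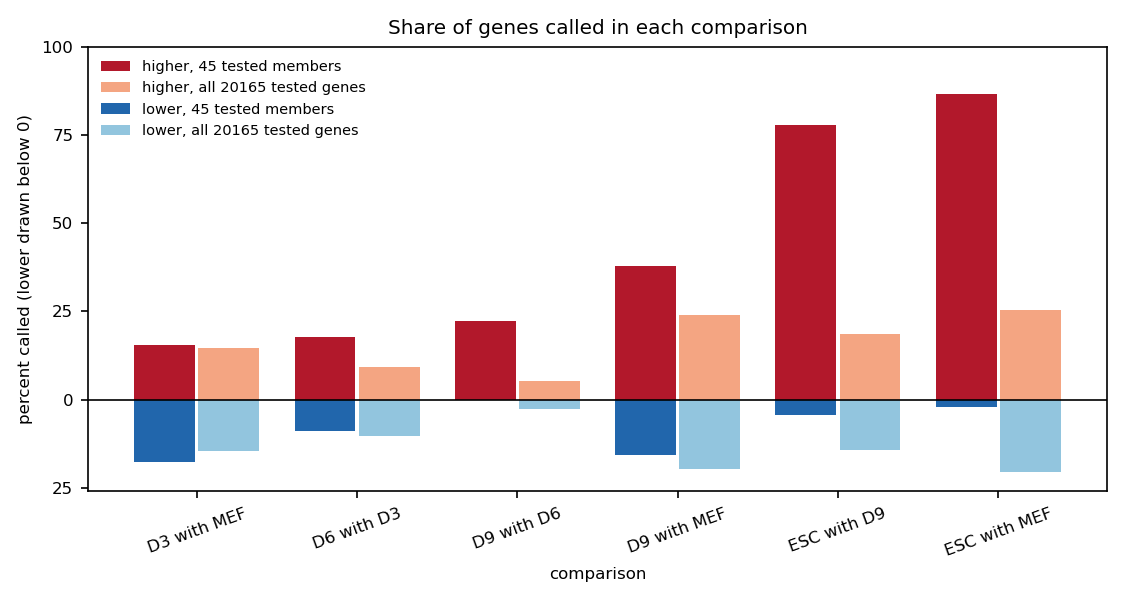
Percent of the 45 tested members (dark bars) and of all 20165 tested genes (light bars) called higher (upward) or lower (downward) in each of 6 comparisons. For ESC with D9 the members stand at 77.8% higher and all genes at 18.6%, whereas for D3 with MEF the members stand at 15.6% and all genes at 14.6%.

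Among the early germ cell factors and genes of meiotic entry, Dazl, Sohlh2 and Stra8 had almost no reads before ESC. Dazl, an RNA-binding protein needed for germ cell development, had 3 and 2 estimated reads in the MEF libraries, 0 in all 4 libraries of D3 and D6, 1 and 2 at D9, and 1051 and 1101 in ESC. The ESC reads were 710 times those of D9 (exact 95% counting interval 243 to 3448, which covers counting error only). Sohlh2, a transcription factor of early spermatogonia and oocytes, had at most 2 reads in any library before ESC and 1144 and 1122 reads there, at least 748-fold higher than at D9, taking 3 reads over both libraries as the floor for a group at 0. Stra8, which drives entry into meiosis in response to retinoic acid, had 0 reads in MEF, at most 3 in any induced library, and 1126 and 1402 in ESC (18.64 and 18.86 TPM). All 3 genes had a few reads at most before ESC and several TPM in both ESC libraries. They passed the low-count filter through the ESC libraries alone, so this separation adds no support. The calls of Dazl (lower at D3), Sohlh2 (lower at D9) and Stra8 (higher at D9) against MEF rest on 5, 3 and 4 reads in the higher group. In edgeR without MEF replicate 1 the adjusted p values were 0.055, 0.058 and 0.11. That of Dazl was 0.058 without D3 replicate 1. That of Sohlh2 was 0.15 without MEF replicate 2, 0.11 without D9 replicate 1 and 0.15 without D9 replicate 2. That of Stra8 was 0.15 without MEF replicate 2, 0.054 without either D6 library and 0.22 without D9 replicate 1.

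Ddx4 (also called Vasa), an RNA helicase that marks germ cells, was at 0.36 and 0.31 TPM in MEF, between 0.00 and 0.04 TPM in the 6 induced libraries, and 5.95 and 6.0 TPM in ESC. It fell at D3 by 4.18 on the log2 scale (SE 0.44, adjusted p = 9.1e-07) and was higher in ESC than at D9 by 8.50 ± 0.29 (SE, adjusted p = 3.5e-12). MEF, induced and ESC libraries formed 3 separate levels. Meioc, a partner of the meiotic entry machinery, stayed between 4 and 15 reads per library until D9 and had 742 and 838 in ESC (2.47 and 2.64 TPM), a log2 change of 6.01 ± 0.23 (SE, adjusted p = 1.3e-11).

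Kit, the receptor for stem cell factor on germ cells and on other stem cells, took a different course. It was at 0.17 and 0.22 TPM in MEF, 0.03 and 0.1 at D3, 4.16 and 5.0 at D6, 8.14 and 9.62 at D9, and 23.71 and 17.76 in ESC. It rose from D3 to D6 by 4.97 ± 0.17 (SE, adjusted p = 9.5e-12) and again by 1.18 ± 0.08 to D9 and 1.04 ± 0.07 to ESC (adjusted p = 6.2e-08 and 9.3e-09). Kit also marks mast cells and melanocytes: 8 of 8 mast cell and haematopoietic markers were under 1 TPM at D6, D9 and ESC (summed 0.682 to 1.85 TPM), and so were 7 of 7 melanocyte markers at D6 and D9 but only 4 of 7 in ESC. Dnd1, an RNA-binding protein of primordial germ cells, was at 0.32 and 0.3 TPM in MEF, 0.56 and 0.45 at D3, 0.84 and 0.69 at D6, 0.63 and 0.71 at D9, and 5.33 and 4.7 in ESC. Its small rise between MEF and D9 (1.12 ± 0.22, SE, adjusted p = 3.0e-04) fell under the fold minimum in DESeq2 (0.98), while that from D9 to ESC was 2.64 ± 0.17 (adjusted p = 4.1e-09).

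Prdm1 (Blimp1), the repressor that specifies primordial germ cells, was at 0.56 and 0.6 TPM in MEF, 0.44 in both D3 libraries, 0.03 and 0.19 at D6, 0.09 and 0.12 at D9, and 1.39 and 1.19 in ESC. It fell from D3 to D6 by 3.31 on the log2 scale (SE 0.23, adjusted p = 2e-08), rose by 1.35 ± 0.28 to D9 (adjusted p = 0.0017) and by 3.40 ± 0.18 to ESC (adjusted p = 6.9e-10). Its lowest 4 libraries were those of D6 and D9. By TPM the D6 and D9 libraries overlapped, and the change from D6 to D9 was -0.01 in limma on log2(TPM + 1). Nanos3, which protects migrating germ cells, had 5 reads in each MEF library, 8 to 17 in each induced library and 21 in each ESC library, and was called only between ESC and MEF (1.79 ± 0.51, SE, adjusted p = 0.0054), a call that DESeq2 did not make (adjusted p = 0.069). The oocyte factor Figla had 4 and 6 reads in ESC and 0 elsewhere, and Nanos2, of male germ cells, had at most 1 read in any library.

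Among the genes of the chromosome axis, the cohesin subunits Rec8 and Stag3 rose by D3, whereas the third, Smc1b, was not called there. Rec8, the meiotic kleisin that closes the cohesin ring, was at 0.13 and 0.1 TPM in MEF, 3.61 and 2.6 at D3, 7.59 and 6.33 at D6, 8.42 and 9.64 at D9, and 7.22 and 8.04 in ESC. It rose by 5.26 ± 0.30 by D3 (SE, adjusted p = 1.2e-09) and by 1.19 ± 0.13 from D3 to D6 (adjusted p = 2.3e-06), although the second step was 0.95 without D3 replicate 2. D9 and ESC differed by less than 2-fold (-0.46 ± 0.12). Stag3, the meiotic STAG subunit, was at 1.3 and 1.11 TPM in MEF, 4.82 and 4.91 at D3, 5.42 and 4.96 at D6, 8.23 and 7.32 at D9, and 43.5 and 39.32 in ESC. It rose by 2.04 ± 0.12 by D3 (adjusted p = 2.2e-09) and was higher in ESC than at D9 by 2.65 ± 0.07 (adjusted p = 1e-13). Only 29.1% of the Stag3 reads in MEF and 35.3% at D9, but 67.7% in ESC, were assigned to protein-coding transcripts, and many of the others to transcripts with a retained intron. Smc1b, the meiotic SMC subunit, was far lower, at 0.04 and 0.03 TPM in MEF, 0.05 and 0.09 at D3, 0.11 and 0.17 at D6, 0.19 and 0.14 at D9, and 2.83 and 2.63 in ESC. It was higher at D9 than in MEF by 2.20 ± 0.36 (adjusted p = 6e-05) and in ESC than at D9 by 3.93 ± 0.20 (adjusted p = 4.1e-10). Its rise from D3 to D6 (1.11 ± 0.32) was lost without D3 replicate 1 (adjusted p = 0.1) or D6 replicate 2 (adjusted p = 0.12).

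Syce2, a central element protein of the synaptonemal complex, was the most abundant member in ESC, and the only member of that complex with more than 6 TPM in MEF. Its level was 6.77 and 6.78 TPM in MEF, 8.36 and 7.7 at D3, 18.37 and 16.73 at D6, 30.14 and 30.02 at D9, and 52.66 and 52.45 in ESC. The libraries of each stage lay above those of the stage before. It rose by 1.21 ± 0.07 from D3 to D6 (SE, adjusted p = 1.7e-09) and was 2.26 ± 0.07 higher at D9 than in MEF (adjusted p = 3.7e-13), and the step from D9 to ESC was 0.60 ± 0.05, under the fold minimum. Syce2 overlaps Gcdh on the opposite strand, and whether the authors' counting used strand is not given in the sources used here. Sycp1, which forms the transverse filaments, was at 1.08 and 1.0 TPM in MEF, 0.78 and 0.73 at D3, 1.03 and 1.06 at D6, 1.36 and 0.67 at D9, and 6.74 and 6.07 in ESC. Its fall at D3 (-1.04 ± 0.20, adjusted p = 4.4e-04) stood at -0.94 without MEF replicate 2 and -0.81 without D3 replicate 2, under the fold minimum, and its rise from D9 to ESC was 2.09 ± 0.17 (adjusted p = 4.6e-08).

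The other synaptonemal complex and axis genes were low until ESC. Hormad1, an axis protein that guides break formation, had 1 and 0 reads in MEF, 0 in the 4 libraries of D3 and D6, 2 and 8 at D9, and 1473 and 1546 in ESC (17.76 and 16.9 TPM), where it was the third highest member of this role. Its ESC level was 8.19 ± 0.21 above D9 on the log2 scale (SE), but it passed the low-count filter through the ESC libraries alone. Its calls at D9 rest on 10 reads and were lost without D9 replicate 2 (4.18 against D6 and 1.73 against MEF). The call against D6 was also lost without D6 replicate 1 or 2 (adjusted p = 0.056 and 0.052), and that against MEF without MEF replicate 2 (adjusted p = 0.17). Sycp3, of the lateral elements, had 6 to 20 reads per library until D9 and 349 and 336 in ESC (6.09 and 5.45 TPM, 5.15 ± 0.39 above D9, adjusted p = 2.9e-08). Syce1, of the central element, had 3 to 13 reads until D9 and 677 and 684 in ESC (8.03 and 7.22 TPM, 6.68 ± 0.26, adjusted p = 1.7e-11). Tex11, an X-linked gene of meiotic crossing over, had 14 and 33 reads in MEF, 10 to 19 in the induced libraries and 1114 and 1264 in ESC (5.47 TPM in both, 6.33 ± 0.19, adjusted p = 1.1e-12). The fall of Tex11 at D3 was lost without MEF replicate 2 (adjusted p = 0.21), and it lies on the chromosome whose Xist level differed between MEF and the induced libraries. Sycp2, the partner of Sycp3, instead fell from 43 and 41 reads in MEF and 38 and 32 at D3 to 12 and 8 at D6 and 4 and 7 at D9, and had 62 and 47 in ESC. Its change from D3 to D6 was -1.71 ± 0.39 (adjusted p = 0.0018) and ESC did not pass the test against MEF (0.12 ± 0.32). Sycp2l, an oocyte relative of Sycp2, had at most 3 reads in any library before ESC and 44 and 45 there, and Tex12, of the central element, at most 2 and then 30 and 15. Over both libraries the ESC reads of Sycp2l were 29.4 times those of D9 (exact 95% counting interval 9.73 to 145), and those of Tex12 at least 14.9-fold higher.

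**Figure D3:**
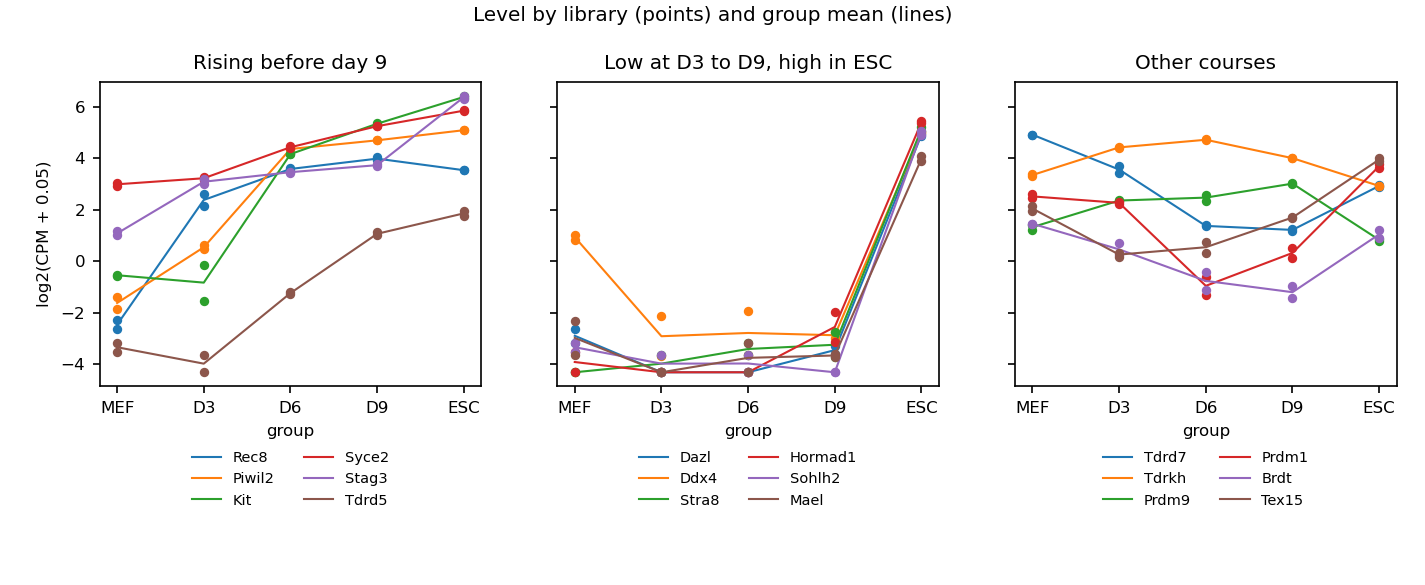
Level of 18 members, chosen with their values known, in each library (points) and as the mean of the 2 log values (lines), on the axis log2(CPM + 0.05), where CPM is scaled estimated reads relative to library size, across the 5 groups. Rec8 climbs between MEF and D3, Piwil2 and Kit between D3 and D6, and Dazl, Stra8, Hormad1, Sohlh2 and Mael lie at the bottom until ESC.

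Of the recombination genes, Dmc1, the meiotic strand exchange recombinase, had 4 reads in each MEF library, 6 and 9 at D3, 13 and 6 at D6, 27 and 30 at D9, and 630 and 762 in ESC (4.67 and 5.02 TPM). It rose from D6 to D9 by 1.5 ± 0.33 (SE, adjusted p = 0.0028) and was higher in ESC than at D9 by 4.58 ± 0.20 (adjusted p = 7.1e-11). Prdm9, the histone methyltransferase that places recombination hotspots, ran the other way late. It was at 0.86 and 0.51 TPM in MEF, 1.31 and 1.41 at D3, 1.75 and 2.02 at D6, 2.24 and 1.95 at D9, and 1.06 and 0.58 in ESC. It was higher at D9 than in MEF by 1.71 ± 0.15 (adjusted p = 1.1e-07) and lower in ESC than at D9 (-2.22 ± 0.16, adjusted p = 1.3e-08), with no overlap in either case. Its rise at D3 (1.05 ± 0.16) stood at 0.96 without MEF replicate 2 and 0.93 in DESeq2, under the fold minimum. Tex15, needed for repair of meiotic breaks, was at 0.4 and 0.41 TPM in MEF, 0.12 and 0.11 at D3, 0.1 and 0.16 at D6, 0.31 and 0.33 at D9, and 1.55 and 1.46 in ESC. It fell at D3 by 1.83 (SE 0.18, adjusted p = 5.1e-07), rose from D6 to D9 by 1.17 ± 0.18 (adjusted p = 1.3e-04, but 0.96 without D6 replicate 1) and rose again to ESC by 2.27 ± 0.14 (adjusted p = 3.8e-09). Mei1, a factor of break formation, had at most 2 reads in any library before ESC and 23 and 22 there, 44.6 times the single read of D9 (exact 95% counting interval 7.6 to 1799). Spo11, the enzyme that cuts meiotic DNA, had at most 5 reads in any library, and 0 and 1 in ESC.

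Of the PIWI genes, Piwil2 and Piwil4 rose before day 9. Piwil2 (Mili), which amplifies piRNAs in the cytoplasm, was at 0.02 and 0.03 TPM in MEF, 0.15 and 0.14 at D3, 2.06 and 2.0 at D6, 2.43 and 2.41 at D9, and 3.58 and 3.5 in ESC. It rose by 2.30 ± 0.24 by D3 and by 3.86 ± 0.10 from D3 to D6 (SE, adjusted p = 9.1e-07 and 2.6e-13), and each stage lay above the one before. Piwil4 (Miwi2), which acts in the nucleus to direct DNA methylation of transposons, was at 0.05 and 0.07 TPM in MEF, 0.11 and 0.16 at D3, 1.07 and 1.15 at D6, 0.93 and 0.89 at D9, and 1.26 and 1.0 in ESC. It rose by 1.39 ± 0.34 by D3 and by 3.17 ± 0.21 from D3 to D6 (adjusted p = 0.0025 and 9.5e-09), and the differences from D6 to D9 and from D9 to ESC did not pass the test (-0.21 ± 0.16 and 0.27 ± 0.16). Piwil1 (Miwi), of later male germ cells, had at most 3 reads in any library before ESC and 35 and 51 there, at 0.13 and 0.2 TPM.

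The piRNA factors that act beside them followed several courses. Tdrd5, of pachytene piRNA processing, had 1 and 2 reads in MEF, 0 and 1 at D3, 13 and 12 at D6, 61 and 84 at D9, and 131 and 124 in ESC. Its reads at D6 were 26.5 times the single read of D3 (exact 95% counting interval 4.33 to 1086, adjusted p = 1.1e-04 in edgeR). From D6 to D9 it rose by 2.44 ± 0.33 (SE, adjusted p = 4.4e-05). In TPM the step from D3 to D6 was not seen, because the single D3 read was assigned to a short transcript and counted as 0.49 TPM. Tdrd1, a scaffold for MILI, had 19 and 25 reads in MEF, 51 and 47 at D3, 67 and 77 at D6, 102 and 137 at D9, and 77 and 83 in ESC, with D9 above MEF by 2.19 ± 0.24 (adjusted p = 9.8e-07). Tdrkh, which tethers PIWI proteins to mitochondria, was at 3.18 and 4.04 TPM in MEF, 8.78 and 8.33 at D3, 9.47 and 10.96 at D6, 6.17 and 6.57 at D9, and 3.92 and 3.41 in ESC. It rose at D3 by 1.08 ± 0.07 (adjusted p = 3.2e-09, but 0.96 in DESeq2) and was lower in ESC than at D9 (-1.08 ± 0.07, adjusted p = 5.5e-09). Tdrkh overlaps Oaz3 on the opposite strand, and such an overlap with a coding gene also holds for Sycp3, Tex12, Dnd1 and Tdrd9. Tdrd7, a protein of germ granules that is also found in the lens, fell from 15.88 and 13.07 TPM in MEF to 5.8 and 4.01 at D3 and 0.59 and 1.06 at D6, stood at 0.67 and 0.92 at D9, and was at 3.56 and 3.71 in ESC. It was lower at D9 than in MEF by 3.73 on the log2 scale (SE 0.11, adjusted p = 4.2e-13) and higher in ESC than at D9 by 1.73 ± 0.13 (adjusted p = 1.9e-08). Its ESC level was 25.1% of the MEF level, where the summed fibroblast markers in ESC were at 8.82% of MEF. The part of feeder cells in the ESC value was not tested.

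Most of the remaining transposon and piRNA genes were high in ESC and low elsewhere. Tex19.1, which restrains retrotransposons in germ cells, pluripotent cells and placenta, had 0 reads in MEF, 3 and 2 at D3, 11 and 13 at D6, 105 and 146 at D9, and 2464 and 2631 in ESC (29.77 and 28.07 TPM). Its reads were at least 70.9-fold higher at D9 than in MEF, and ESC lay above D9 by 4.33 ± 0.08 (SE, adjusted p = 2.2e-14). The call at D3 rests on 5 reads and was lost without MEF replicate 1 (adjusted p = 0.085), MEF replicate 2 (adjusted p = 0.11) or D3 replicate 1 (adjusted p = 0.072). Tdrd12, of piRNA amplification, had 1 read in each MEF library, 8 and 2 at D3, 9 at D6 in both, 27 and 34 at D9, and 1058 and 1176 in ESC (11.1 and 10.75 TPM, 5.17 ± 0.16 above D9, adjusted p = 9.7e-13). Mov10l1, the helicase that starts piRNA processing, had 2 and 0 reads in MEF, 2 and 0 at D3, 4 and 3 at D6, 11 and 18 at D9, and 658 and 660 in ESC (17.38 and 16.68 TPM, 5.49 ± 0.26, adjusted p = 1.9e-10). Of the ESC reads of Mov10l1, 584 and 559 were assigned to a coding transcript of 4052 bases. Another 27 and 29 were assigned to a transcript of 265 bases, on which few reads make a high TPM. The TPM of Mov10l1 may thus stand too high beside other members. The rise of Mov10l1 from D6 to D9 (1.93 ± 0.54) was lost without D9 replicate 2 (1.72), D6 replicate 1 (2.13) or D6 replicate 2 (1.76).

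Rnf17, a Tudor protein of the germ granules, had 33 to 75 reads per library until D9 and 3577 and 3874 in ESC (10.51 and 10.13 TPM, 5.74 ± 0.14 above D9, adjusted p = 7e-14). Mael, a granule protein needed to silence transposons, had 4 and 1 reads in MEF, at most 2 in any induced library, and 575 and 550 in ESC (6.38 and 5.4 TPM). Its ESC reads were 557 times those of D9 (exact 95% counting interval 154 to 4606), and its fall at D3 rests on 5 reads and was lost without MEF replicate 1 (adjusted p = 0.19), D3 replicate 1 (adjusted p = 0.08) or D3 replicate 2 (adjusted p = 0.071). Asz1, which sits with piRNA factors at mitochondria, had 1 read before ESC, in MEF, and 14 in each ESC library, at least 9.24-fold above D9. The call between ESC and MEF was lost without MEF replicate 2 (adjusted p = 0.063). Tdrd9, a helicase partner of MIWI2, had 9 and 6 reads in MEF, 0 to 8 in each induced library and 37 and 38 in ESC. The ESC reads were 24.8 times those of D9 (exact 95% counting interval 8.15 to 123), and the call against MEF was lost without any 1 of the 4 libraries of those groups (adjusted p = 0.057 and 0.16 without MEF replicates 1 and 2, 0.088 and 0.076 without ESC replicates 1 and 2). Tdrd6, of the chromatoid body, had 0 to 10 reads per library and was the single tested member called in no comparison.

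The other germ cell proteins included 1 of the strongest rises by reads. Tex14, which keeps the bridges between germ cells open, had 18 and 26 reads in MEF, 9 and 14 at D3, 11 in each D6 library, 23 and 27 at D9, and 2145 and 2285 in ESC (23.49 and 21.6 TPM), 6.45 ± 0.11 above D9 (SE, adjusted p = 2.9e-15). In MEF 72.7% of its reads were assigned to a transcript of 444 bases, which gave 1.31 and 1.48 TPM. Its fall at D3 was lost without D3 replicate 1 (adjusted p = 0.083) and its rise from D6 to D9 without D6 replicate 1 (adjusted p = 0.057). Stk31, a Tudor domain kinase of germ cells, had 7 and 17 reads in MEF and 0 to 8 in each induced library. In ESC it had 535 and 576 reads (3.7 and 4.02 TPM), 6.89 ± 0.43 above D9 on the log2 scale. It passed the low-count filter through the ESC libraries alone, so this difference adds no support. Its lower level at D9 than in MEF was lost with the replicate block (adjusted p = 0.058). That call was also lost without MEF replicate 2, D9 replicate 2, ESC replicate 1 or ESC replicate 2. Slc25a31, the germ cell ADP/ATP carrier, had 6 to 18 reads per library until D9 and 175 and 148 in ESC (4.08 ± 0.35 above D9, adjusted p = 1.1e-07). Brdt, the testis BET protein, was at 0.6 and 0.67 TPM in MEF, 0.31 and 0.23 at D3, 0.11 and 0.14 at D6, 0.05 and 0.08 at D9, and 0.55 and 0.46 in ESC. It was lower at D9 than in MEF (-2.76 ± 0.34, adjusted p = 3.7e-06) and higher in ESC than at D9 (2.35 ± 0.34, adjusted p = 2.7e-05), and its change from D3 to D6 (-1.28 ± 0.34) was -0.96 without D6 replicate 1 (adjusted p = 0.057). Of the MEF reads of Brdt, 55.0% were assigned to a processed transcript and not to a coding one. Tex101, a surface glycoprotein of testis germ cells, had at most 2 reads before ESC and 18 and 27 there, 22.3 times those of D9 (exact 95% counting interval 5.82 to 190).

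How far the members had moved by D9 was described for the 32 at 1 TPM or more in both ESC libraries, as mean CPM in percent of the mean ESC level. At D9, 21 of them were under 10%, 6 between 10% and 50%, and 5 at 50% or more. The 5 were Tdrkh at 212%, Rec8 at 137%, Piwil2 at 76.0%, Syce2 at 65.8% and Tdrd5 at 57.0%. Kit stood just under that limit at 48.5%, and Prdm1 just under the lower limit at 9.33%. The median over these 32 members was 1.43% in MEF, 1.10% at D3, 2.59% at D6 and 3.88% at D9. Over the 13245 genes chosen in the same way the D9 median was 97.8%, and 5.64% of them were under 10% at D9. Both sets were chosen by their ESC level, which favours low values elsewhere. The members furthest from ESC at D9 were Sohlh2 with 0 reads, Dazl at 0.137%, Stra8 at 0.172%, Mael at 0.181%, Ddx4 at 0.268% and Hormad1 at 0.315%.

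**Figure D4:**
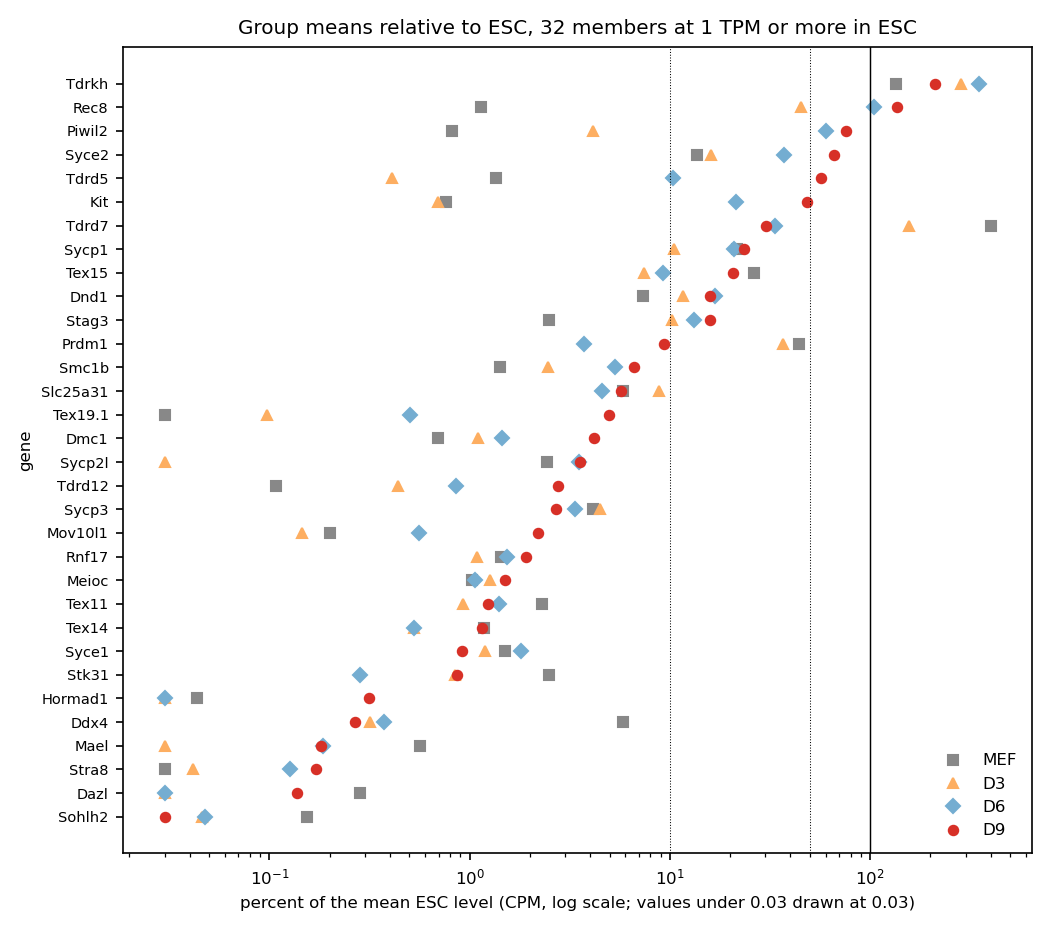
Mean level of MEF, D3, D6 and D9 as percent of the mean ESC level in CPM, on a log axis, for the 32 members at 1 TPM or more in both ESC libraries, in order of the D9 value. At D9 (circles) 5 members lie at 50% or above and 21 lie under 10%, with Sohlh2 at the bottom.

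Another list of 48 meiosis and germ cell genes, of which 46 were matched and 40 tested, held no member. From D9 to ESC 26 of 40 were higher (65.0%, against 18.6% of all genes) and 2 lower (5.0%, against 14.3%), with a median log2 fold change of 3.65. This list too was chosen with earlier results of these data known. How many of its genes passed the low-count filter through the ESC libraries alone was not counted, and such genes had to be higher in ESC. Between D9 and MEF 13 were higher (32.5%, against 24.1%) and 4 lower (10%, against 19.8%). The most changed by D9 were Ybx2, a germ cell RNA-binding protein (6.76 ± 0.39 above MEF, SE, adjusted p = 8.2e-10, at 3.18 and 4.93 TPM), Lhx8, an oocyte factor that was lower (-5.29 ± 0.88, adjusted p = 8.1e-05), and Ccnb1ip1, a crossover factor (5.13 ± 0.26, adjusted p = 1.6e-10). Among the most changed in ESC, Tuba3a, a testis tubulin, was at 28.9 and 27.9 TPM from at most 0.0516 TPM before, 9.96 ± 0.23 above D9 (SE). Of 15 primordial germ cell factors, most of which also act in pluripotent cells, 13 (86.7%, against 24.1% of all genes) were already higher at D9 than in MEF, led by Sall4, Utf1 and Tfap2c at 10.33 ± 0.20, 9.69 ± 0.19 and 8.65 ± 0.15 (adjusted p = 2.8e-15, 2.9e-15 and 9.2e-16). From D9 to ESC 8 of these 15 rose (53.3%, against 18.6%), among them Prdm14 by 4.29 ± 0.15 and Lin28a by 4.10 ± 0.06 (adjusted p = 9.9e-11 and 9.0e-16). Another 2 fell (13.3%, against 14.3%), Cxcr4 (-4.99 ± 0.16, adjusted p = 1.7e-12) and Tfap2a (-3.86 ± 0.15, adjusted p = 1.6e-11). Sox2 and Pou5f1 in this list are also carried by the cassette.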

How the data were processed

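Poly(A) RNA libraries of 10 samples (5 groups of 2) were made with a stranded kit and read as single reads of 50 nt, per the labels. The authors deposited estimated counts and TPM for 109617 transcripts per library. Both come from Salmon 0.8.2 with mm10, per the submitters' processing notes, and the annotation release is not given in the sources used here. Groups and replicate numbers were taken from titles.

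For each gene the deposited estimated counts of its transcripts were added up and rounded. Genes passing filterByExpr (minimum count 10, minimum total 15) left 20165 genes, scaled with TMM and fitted over all 10 libraries in edgeR 4.0.16 (R 4.3.3, quasi-likelihood F test). Calls required a Benjamini-Hochberg adjusted p under 0.05 over all genes tested and a log2 fold change of 1 or more in size. SE is the size of that change divided by the root of F. TPM was summed per gene. Chi-square per degree of freedom of replicate pairs was 2.78 to 5.05, and the common biological coefficient of variation was 3.75%. Each library counted as 1 sample, although neither value shows that libraries of a group came from separate cultures. The test was checked on simulated counts.

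The members, lists, markers and the rule for named genes (values for every member called in any comparison, and the most changed genes of other lists) were chosen with earlier results of these data known. Groups at 0 reads were given a floor of 3 reads over both libraries, and groups of 1 to 3 reads an exact 95% counting interval. Alternatives were DESeq2 1.42.0, limma 3.58.1 on TPM, other filters and scaling, protein-coding transcripts, a replicate block and leaving out each library. Equal replicate numbers did not deviate together (mean correlation 1e-04 over 10 pairs of groups, -0.02 to 0.022).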

Additional observations from a re-analysis of the deposited data

How the results depend on the processing

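With each library left out in turn (a lone library is then assumed to vary like the other groups), 35 members were higher and 2 lower in ESC than at D9 in every case, and 37 to 39 higher and 1 lower than in MEF. The other ranges were 5 to 8 higher and 6 to 9 lower for D3 with MEF, 7 to 10 and 3 to 5 for D6 with D3, 6 to 10 and 0 for D9 with D6, and 16 to 17 and 5 to 8 for D9 with MEF. Of 138 calls, 20 were lost in at least 1 such fit, and 72 were kept under every alternative that tested the gene. With calls limited to at least 20 reads in the higher group, a limit chosen after seeing the data, 7 calls dropped out.

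For D3 with MEF, members higher numbered 4 with DESeq2, 4 under the stricter filter, and 3 with limma on log2(TPM + 1) and on log2(TPM + 0.1), and members lower numbered 1 and 4 with the 2 limma settings. For D6 with D3 the limma counts were 3 and 5 higher and 1 and 2 lower, and 2 were lower under the stricter filter. For D9 with D6 they were 1 and 2 higher, and for D9 with MEF 7 higher and 1 lower with the pseudocount of 1. Members higher in ESC than at D9 numbered 24 under the stricter filter and 26 with limma on log2(TPM + 1), and members higher than in MEF 26 and 29. For ESC with D9, members lower numbered 1 under the stricter filter and 0 and 1 with limma. A pseudocount shrinks the change of genes at low TPM, and the stricter filter tests fewer genes. Tdrd5 from D3 to D6 was reversed in limma (-0.21 and -0.68), as was Prdm1 from D6 to D9 (-0.01). At 0.5 TPM, 9 members were detected in MEF and 13 at D9, and at 2 TPM 3 in MEF.

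Libraries share replicate numbers across groups, but equal numbers did not deviate together, so the samples share only a number. The replicate block changed 1 count, members lower at D9 than in MEF (6 in place of 7), by the loss of Stk31, and left the other 11 counts as they were. Scaling by library size without TMM shifted the median of all genes to 0.285 for D3 with MEF, 0.482 for D9 with MEF and 0.438 for ESC with MEF, with 3809 higher and 2483 lower, 6241 and 3284, and 6553 and 3152 genes (2950 and 2923, 4857 and 3994, and 5142 and 4148 with TMM). Members were then 9 higher and 6 lower, 18 and 5, and 39 and 1. Before ESC many members had under 20 reads per library, so changes there were often not detectable at this depth.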

Other observations

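The repressors that are known to hold germline genes off in somatic cells were measured beside the members. Of 14 genes of the PRC1.6 and E2F6 complex, 3 were higher at D9 than in MEF, or 21.4% against 24.1% of all tested genes (Wdr5 by 2.34 ± 0.05, Pcgf6 by 2.15 ± 0.07 and L3mbtl2 by 1.82 ± 0.05 on the log2 scale, SE, adjusted p = 9.1e-15, 4.5e-13 and 3.0e-13) and Yaf2 was lower (-1.31 ± 0.08, adjusted p = 7.7e-10). Between ESC and D9, L3mbtl2 (1.27 ± 0.04, adjusted p = 2.5e-12) and Rybp (1.15 ± 0.04, adjusted p = 5.7e-12) were higher. That was 14.3% of the list against 18.6% of all tested genes, and 0 were lower against 14.3% of all genes. E2f6, named because the complex bears its name, was at 8.39 and 7.39 TPM in MEF, 13.6 and 14.4 at D3, 12.7 and 11.8 at D6, 8.54 and 8.60 at D9, and 6.16 and 6.36 in ESC. Binding of the complex was not measured here.

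Of 16 genes of DNA methylation, its removal and H3K9 methylation, 7 (43.8%, against 24.1% of all tested genes) were higher at D9 than in MEF, led by Dnmt3b (3.84 ± 0.10, adjusted p = 7.8e-14), Uhrf1 (2.56 ± 0.04, adjusted p = 4.0e-16) and Tet1 (2.54 ± 0.07, adjusted p = 7.8e-14). From D9 to ESC the most changed was Dnmt3l, a cofactor of DNA methylation in germ cells, which was at 0.429 and 0.381 TPM at D9 and 142 and 129 in ESC (8.16 ± 0.09, adjusted p = 2.5e-17). Tet1, which oxidises methylated cytosine, went from 3.36 and 2.65 TPM at D9 to 22.3 and 20.2 in ESC (2.77 ± 0.05, adjusted p = 3.1e-15), and Tet3 from 3.18 and 3.04 to 0.695 and 0.606 (-2.45 ± 0.06, adjusted p = 4.2e-14).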
